A study of Homo sapiens with 4 samples.

Results

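The genes described here build cholesterol, sense it and move it, and they were set around GRAMD1B, one of a family of 3 sterol transfer proteins. The list held 35 genes, each matched by symbol to 1 of the 63568 gene identifiers in the deposited count files, and 34 of the 35 were among the 21932 genes that passed the filter on low counts and were tested. The list was chosen by function around GRAMD1B, and GRAMD1B was selected on its fall in the same contrast, USP47 shRNA against control shRNA, that the values below describe. Its fall is therefore given as a description with no test. The other 34 genes were listed with results of this contrast already known, so their counts of called genes are descriptions too and add no support. The question put to them was whether the target genes of SREBP and LXR moved with GRAMD1B. The list does not hold every gene of the pathway.

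RNA-Seq was made of HGC-27, an established human gastric carcinoma cell line, in 4 libraries: 2 of cells carrying a scrambled control shRNA and 2 of cells carrying a USP47-targeting shRNA. USP47 encodes a deubiquitinase, an enzyme that takes ubiquitin off other proteins. All 4 libraries came from cells infected with lentivirus and grown in a medium with serum, and per the study's methods the shRNAs were in the pLKO.1 vector and infected cells were kept under puromycin selection to give stable lines. The sources used here do not say whether both USP47 libraries carried the same shRNA, so a difference between shRNAs and a difference between cultures cannot be told apart. The series' design text speaks of biological duplicates and of a vehicle control that no sample label names, the methods speak of triplicate, and 2 libraries per group were analysed here. P-values measure only the spread between these libraries.

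Total gene counts per library ranged from 15649899 to 20140273. USP47 itself stood at 80.0 and 66.1 CPM (read counts scaled to library size, with TMM normalisation across libraries) with control shRNA and at 36.0 and 21.5 CPM with USP47 shRNA, a log2 fold change of -1.34 ± 0.21 (SE; adjusted p = 0.00362, edgeR's quasi-likelihood test, adjusted by Benjamini-Hochberg over the 21932 genes). Of the control mean, 49.3% was left in USP47 shRNA replicate 1 and 29.5% in replicate 2, so the knockdown was deeper in replicate 2. In the annotation, 41.4% of the exon bases of USP47 are shared with DKK3 on the opposite strand. The labels call HGC-27 a gastric carcinoma line. The epithelial markers KRT18, KRT19, TFF1, MUC5AC and GKN1 had 0 to 3 counts per library. Together the 9 gastric epithelial markers looked at summed to 2.09 to 3.27 CPM. EPCAM, a further epithelial marker, had 12 and 11 counts with control shRNA and 3 in each USP47 library. It passed the filter on low counts through its control libraries alone. CDH1, KRT8 and VIL1 overlapped between groups. CDH1 had 13 and 12 against 28 and 8 counts, and KRT8 10 and 19 against 10 and 10. VIL1 had 12 and 13 against 21 and 6 counts. Of 4 mesenchymal markers, VIM stood at 353 to 502 CPM and ZEB1 at 68.1 to 106 CPM, whereas CDH2 had 3 to 10 counts. FN1 fell, from 73.1 and 73.8 CPM to 26.2 and 32.0 CPM (log2 fold change -1.34, adjusted p = 0.000602). The part of these markers in the values of the sterol genes was not tested. Leukocyte and endothelial markers summed to 1.12 to 1.84 CPM. In bulk RNA, fewer cells of a type and less RNA per cell cannot be told apart.

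Cells make cholesterol from acetyl-CoA through the mevalonate pathway, whose isoprenoid units are joined into squalene and then closed into the sterol ring. When sterol in the endoplasmic reticulum is low, SCAP carries the SREBP transcription factors to the Golgi, where they are cut and released to switch on the enzymes of synthesis. When sterol is plentiful, INSIG proteins hold SCAP back, and oxysterols activate the LXR nuclear receptors, which raise the export pumps ABCA1 and ABCG1. GRAMD1 proteins, also called Asters, sit in the endoplasmic reticulum at contacts with the plasma membrane and carry accessible cholesterol inward, and so lie between the cell surface and this sensor.

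Promoters are shown first for GRAMD1A and for 4 of the called genes, since SREBP and LXR act through short DNA elements near the start of a gene. Each is the window from 250 bases before to 50 after the start given by RefSeq on GRCh38.p14, printed 5′ to 3′ along the gene's own strand. Capitals mark CCAAT, the box bound by NF-Y, a partner of SREBP (ATTGG where it lies on the other strand), and the E-box CACGTG. The windows are chr19:34994477-34994776 on the plus strand for GRAMD1A, chr1:155308616-155308915 on the plus strand for FDPS, chr5:111512486-111512785 on the minus strand for STARD4, chr9:104928106-104928405 on the minus strand for ABCA1 and chr6:16128836-16129135 on the plus strand for MYLIP.
GRAMD1A: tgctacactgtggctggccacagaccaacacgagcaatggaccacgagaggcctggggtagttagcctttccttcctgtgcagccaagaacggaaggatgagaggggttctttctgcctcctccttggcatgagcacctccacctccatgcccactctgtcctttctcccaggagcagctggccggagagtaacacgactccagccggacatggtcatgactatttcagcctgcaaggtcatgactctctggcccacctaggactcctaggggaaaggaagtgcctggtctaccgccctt
FDPS: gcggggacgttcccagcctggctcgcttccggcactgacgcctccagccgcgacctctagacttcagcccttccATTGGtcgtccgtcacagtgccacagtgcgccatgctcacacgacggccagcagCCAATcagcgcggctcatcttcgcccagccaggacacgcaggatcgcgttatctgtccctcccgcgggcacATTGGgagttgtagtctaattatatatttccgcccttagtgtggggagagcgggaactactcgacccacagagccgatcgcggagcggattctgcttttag
STARD4: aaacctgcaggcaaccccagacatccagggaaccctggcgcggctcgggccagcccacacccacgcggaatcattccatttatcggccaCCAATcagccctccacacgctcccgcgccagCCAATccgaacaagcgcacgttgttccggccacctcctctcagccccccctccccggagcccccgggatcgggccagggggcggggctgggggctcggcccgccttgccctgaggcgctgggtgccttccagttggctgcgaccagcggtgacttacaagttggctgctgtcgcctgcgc
ABCA1: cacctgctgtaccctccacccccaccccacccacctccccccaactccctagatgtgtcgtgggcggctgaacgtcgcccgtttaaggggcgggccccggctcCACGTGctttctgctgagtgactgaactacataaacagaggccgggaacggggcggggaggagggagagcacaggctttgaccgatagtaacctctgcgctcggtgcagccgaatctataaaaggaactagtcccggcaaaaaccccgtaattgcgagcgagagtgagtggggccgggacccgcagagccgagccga
MYLIP: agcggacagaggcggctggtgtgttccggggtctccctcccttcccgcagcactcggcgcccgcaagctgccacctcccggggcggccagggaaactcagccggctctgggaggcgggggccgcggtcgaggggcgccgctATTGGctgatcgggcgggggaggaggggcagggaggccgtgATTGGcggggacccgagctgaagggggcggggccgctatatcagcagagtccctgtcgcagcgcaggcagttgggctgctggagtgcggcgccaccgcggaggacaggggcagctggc

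The FDPS window held 3 CCAAT boxes, those of STARD4 and MYLIP held 2 each, and the ABCA1 window held 1 E-box starting 147 bases before the start. The GRAMD1A window held none of the letters searched, nor did that of NR1H3, a called gene whose window is not printed. The window of GRAMD1C, also not printed, held a CCAAT box. A RefSeq window was found for 30 of the 35 genes, and there was none for GRAMD1B, ACAT2, FDFT1, SQLE and ABCG1. CCAAT, searched on both strands, lay in 19 of the 30 windows (63.3%) and in 34.6% of all 35116 windows. CACGTG, which reads the same on both strands, lay in 5 of 30 (16.7%; ABCA1, INSIG1, LSS, SC5D and SCAP) and in 7.26% of all. The core of the sterol regulatory element, TCACNCCAC on either strand, lay in 1 of 30 (3.33%), that of SREBF2, and in 1.13% of all. An exact direct repeat of AGGTCA spaced by 4 bases, the consensus form of the LXR element, lay in 0 of 30 and in 0.0199% of all. Repeats that differ from it in any base were not searched for. These are exact matches of letters, none of which was tested as a site. Their absence says nothing of elements with other letters in the same window, or of elements farther away. Of the genes with a CCAAT box in the window, FDPS and STARD4 fell, MYLIP rose, and the other 16 were not called or not tested.

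GRAMD1B (chr11:123229136-123498482, plus strand, GRCh37), the family member set apart by the choice of the list, had 56 and 82 counts with control shRNA and 11 and 5 with USP47 shRNA. In CPM these were 3.30 and 4.18 against 0.529 and 0.348, a mean of 3.74 ± 0.621 (SD, n = 2) against 0.439 ± 0.128. The log2 fold change was -3.03 ± 0.33 (SE), and 5 of the 21932 genes tested had a lower one. Both USP47 libraries lay below both control libraries, and the mean left was 11.7% of control. GRAMD1B was the only one of the 35 genes that passed the filter, 0.558 CPM in 2 libraries, through its control libraries alone.

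The abundant member of the family was GRAMD1A (chr19:35485688-35517375, plus strand, GRCh37). It had 138 and 141 CPM with control shRNA and 67.9 and 95.0 CPM with USP47 shRNA, so all values with USP47 shRNA were lower and the lowest was in replicate 1. It fell, with a log2 fold change of -0.78 ± 0.16 (SE) and an adjusted p of 0.0117. Per transcript length, the control mean was 32.2 TPM (the authors' length-scaled level) for GRAMD1A, 0.521 TPM for GRAMD1B and 0.104 TPM for GRAMD1C. GRAMD1A made up 97.9% to 99.6% of the TPM of the family in the 4 libraries, and the summed level of the family went from 34.5 and 31.1 TPM to 16.7 and 17.4 TPM. GRAMD1C had 9 and 13 counts against 6 and 3, too few to pass the filter, and was not tested. Of the relatives with a GRAM domain outside the family, GRAMD4 had a log2 fold change of -0.25 ± 0.14 (SE, adjusted p = 0.258), and GRAMD2A (3 to 6 counts per library) and GRAMD2B (0 to 3) were not tested.

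**Figure D1:**
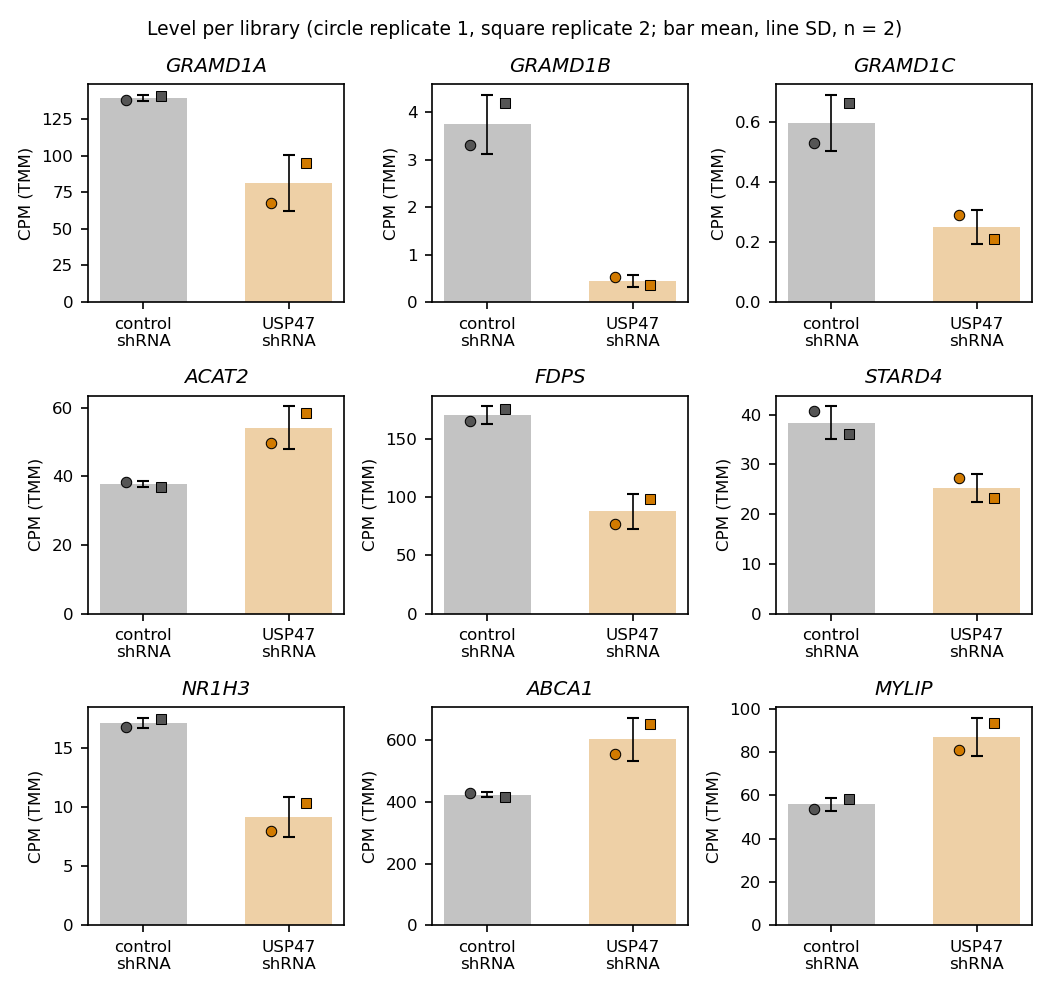
Levels in CPM (TMM-scaled; y axis from 0, its range set per panel) of the 3 GRAMD1 genes and the 6 other called genes in each library, with circles for replicate 1, squares for replicate 2, bars for the mean and lines for the SD of 2 libraries. The 3 GRAMD1 genes, FDPS, STARD4 and NR1H3 sit lower in both USP47 libraries by margins wider than the spread of either group. ACAT2, ABCA1 and MYLIP sit higher by such margins. Replicate 1 with USP47 shRNA is the lowest library for GRAMD1A, FDPS and NR1H3, and GRAMD1B and GRAMD1C have few counts.

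Among the other 33 tested genes (the 34 apart from GRAMD1B, less GRAMD1C), 3 rose (ACAT2, ABCA1 and MYLIP; 9.09%) and 4 fell (GRAMD1A, FDPS, STARD4 and NR1H3; 12.1%). Over all genes tested, 6.52% were called higher and 9.56% lower. In 8 of the 33 (24.2%) both USP47 libraries lay above both control libraries, and in 12 (36.4%) below, against 29.3% and 31.7% of all genes tested. The median log2 fold change was -0.02 over the 33 genes and -0.01 over all genes. Of the 33, 17 lay below 0 and 16 above, and of all genes tested 11144 lay below and 10788 above. Since the list was made with this contrast known, nothing is read from these shares, nor from the counts by role and by list below. Of the 33, 13 had an unadjusted p under 0.05, and 7 of these kept an adjusted p under 0.05. INSIG1 was the nearest to the threshold among those that missed it. The share of all genes tested with an unadjusted p under 0.05 is not given here. Nothing is read from the 13, or from the ring enzymes counted this way below.

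**Figure D2:**
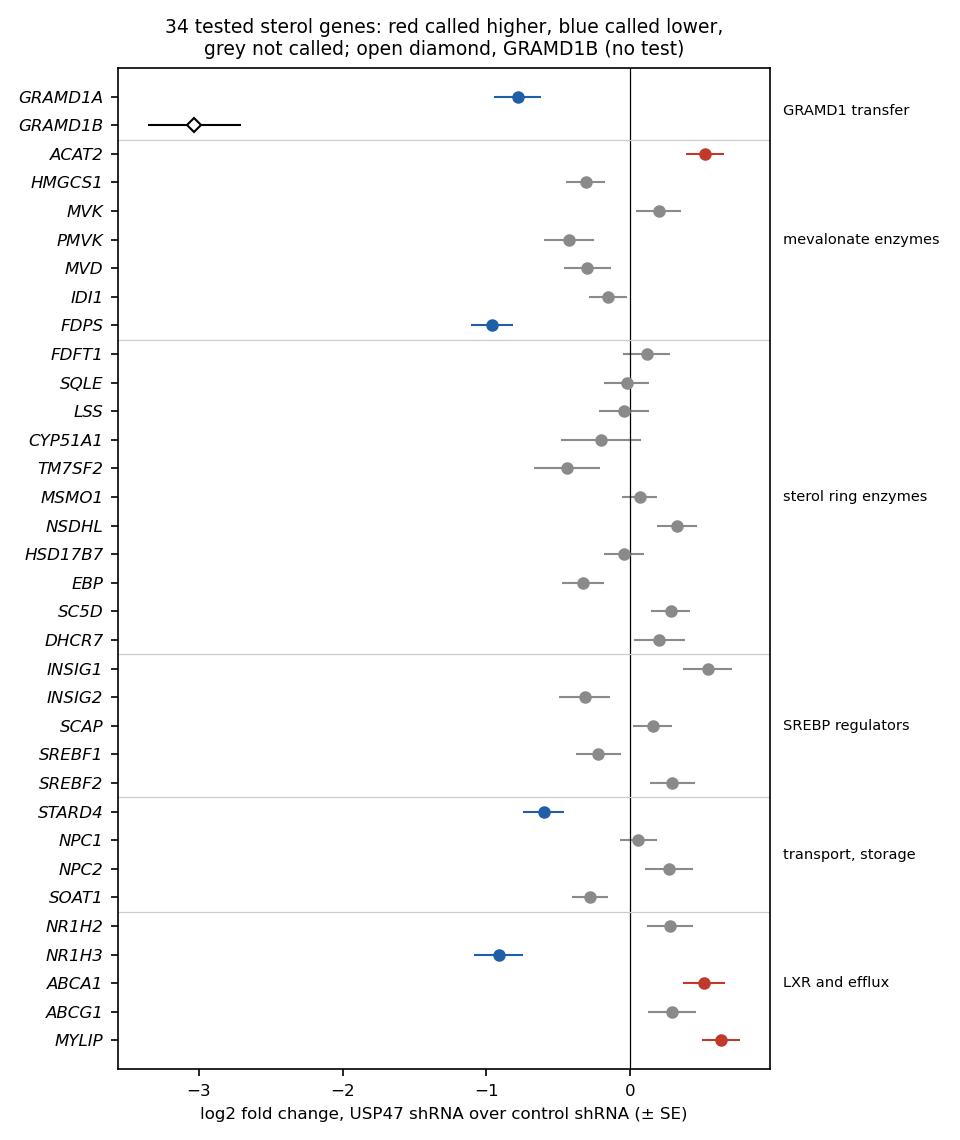
Log2 fold change (x axis, USP47 shRNA over control shRNA, with SE) of the 34 tested genes in order of role, red for called higher, blue for called lower, grey for not called and an open diamond for GRAMD1B. The 7 called genes are spread over the roles and lie between -0.96 and 0.64, with none among the 11 sterol ring enzymes, whereas GRAMD1B lies at -3.03.

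In the mevalonate pathway 1 of 7 enzymes rose and 1 fell (6.52% and 9.56% over all genes tested), with a median log2 fold change of -0.30. FDPS, which makes farnesyl diphosphate, the branch point to squalene and to protein prenylation, lies at chr1:155278539-155290457 (plus strand, GRCh37). Its levels were 165 and 176 CPM with control shRNA and 77.3 and 98.4 CPM with USP47 shRNA, which do not overlap. Its log2 fold change was -0.96 ± 0.15 (SE, adjusted p = 0.00318), the largest fall after GRAMD1B. ACAT2, which joins acetyl-CoA units at the entry of the pathway (chr6:160183077-160200144, plus strand, GRCh37), went the other way. It had 38.3 and 37.0 CPM against 49.7 and 58.5 CPM, and rose by a log2 fold change of 0.52 ± 0.13 (SE, adjusted p = 0.0271). Without control shRNA replicate 1 the log2 fold change of ACAT2 was 0.55 (adjusted p = 0.250) and without replicate 2 it was 0.49 (adjusted p = 0.260).

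Exons shared with genes on the opposite strand touch both calls: 18.6% of the exon bases of FDPS are shared with RUSC1-AS1 and 22.2% of those of ACAT2 with SOD2, SOD2-OT1 and TCP1. The labels name a stranded library kit and the methods another kit, and the use of strand in counting is not given in the sources used here. The part of these neighbours in the values was not tested.

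The other 5 mevalonate enzymes were not called. HMGCS1, which makes the HMG-CoA that enters the pathway, had 264 and 244 CPM against 193 and 218 CPM, with a log2 fold change of -0.31 ± 0.14 (SE, adjusted p = 0.147). The kinase PMVK had 27.2 and 31.8 against 18.5 and 25.8 CPM, with a log2 fold change of -0.42 ± 0.17 (adjusted p = 0.123). MVD, the decarboxylase after it, had 70.3 and 76.7 against 50.0 and 69.9 CPM (-0.30 ± 0.16 in log2, adjusted p = 0.237). In these 3 genes both USP47 libraries lay below both control libraries, with replicate 1 the lower. The groups overlapped for MVK, the first kinase (27.4 and 31.3 against 29.4 and 38.3 CPM; log2 fold change 0.20 ± 0.16), and for the isomerase IDI1 (52.6 and 47.6 against 48.0 and 42.1 CPM; -0.15 ± 0.13). HMGCS1 shares 37.7% of its exon bases with a gene on the opposite strand.

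None of the 11 enzymes that build and finish the sterol ring was called, and 2 of them had an unadjusted p under 0.05, NSDHL and EBP, in opposite directions. DESeq2 called none of the 11 either. Their median log2 fold change was -0.02. SQLE, the squalene epoxidase, was the most abundant gene of the list per transcript length, with a control mean of 236 TPM. It stood at 732 and 751 CPM with control shRNA and at 643 and 816 CPM with USP47 shRNA, one library on each side, and its log2 fold change was -0.02 ± 0.16 (SE). The same placement was seen for FDFT1, the squalene synthase (224 and 234 against 208 and 288 CPM; 0.12 ± 0.16 in log2), and LSS, which closes the ring (284 and 296 against 231 and 334 CPM; -0.04 ± 0.17). For these 3 genes replicate 1 lay below and replicate 2 above both control libraries.

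Of the later ring enzymes, the demethylation step enzyme NSDHL had 46.3 and 53.3 against 57.1 and 68.1 CPM (log2 fold change 0.33 ± 0.14, adjusted p = 0.139). The isomerase EBP had 52.8 and 59.3 against 39.9 and 49.8 CPM (-0.32 ± 0.15, adjusted p = 0.153). SC5D, the sterol C5 desaturase, had 38.9 and 37.2 against 50.2 and 42.3 CPM (0.28 ± 0.13, adjusted p = 0.178). TM7SF2, a sterol reductase, showed the widest gap between the USP47 libraries on the log2 scale, 0.88 in log2(CPM + 0.5), with 19.9 and 37.0 CPM against 38.5 and 38.2 CPM with control shRNA (-0.44 ± 0.23, adjusted p = 0.216). MSMO1, a methyl oxidase, differed least among the genes without overlap, with 98.5 and 101 against 102 and 107 CPM (0.07 ± 0.12). HSD17B7, a ketosteroid reductase, overlapped between groups, with 27.1 and 24.4 against 23.5 and 26.5 CPM (-0.04 ± 0.14). DHCR7, which makes cholesterol in its last step, had 117 and 137 against 119 and 173 CPM (0.20 ± 0.18).

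CYP51A1, the lanosterol demethylase, was low, with 38 and 51 counts against 35 and 38, and a control mean of 0.810 TPM. In the annotation 68.2% of its exon bases are shared on the same strand with the unnamed genes ENSG00000285772 and ENSG00000289027, so its level is uncertain. EBP shares 36.4% of its exon bases in the same way with ENSG00000286268.

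Of the 5 genes that regulate SREBP none was called, and the median log2 fold change was 0.16. INSIG1, the retention protein that SREBP itself induces, came closest, with 129 and 139 CPM against 161 and 230 CPM. Both USP47 libraries lay above both control libraries, replicate 2 the higher, with a log2 fold change of 0.54 ± 0.17 (SE, adjusted p = 0.0549). DESeq2 gave INSIG1 an adjusted p of 0.0227. INSIG2, its less abundant relative, had 6.72 and 6.12 against 5.14 and 5.16 CPM (-0.32 ± 0.18 in log2, adjusted p = 0.250). The 2 genes of the factors themselves leaned in opposite directions. SREBF1 had 437 and 463 against 338 and 435 CPM (-0.22 ± 0.16, adjusted p = 0.355), and SREBF2 had 365 and 391 against 405 and 522 CPM (0.29 ± 0.16, adjusted p = 0.224). SCAP, the escort protein, had 73.2 and 78.7 against 77.0 and 92.5 CPM (0.16 ± 0.14).

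Counted by known regulation, 21 of the listed genes are targets of SREBP, namely the 18 enzymes of synthesis with INSIG1, SREBF2 and STARD4. Of these 21, ACAT2 rose, FDPS and STARD4 fell and 18 were not called, with a median log2 fold change of -0.04. Of the 5 targets of LXR, ABCA1 and MYLIP rose, NR1H3 fell and ABCG1 and SREBF1 were not called, with a median of 0.29. The shares over all genes tested, 6.52% higher and 9.56% lower, stand beside these counts, from which nothing is read about the targets.

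In transport and storage 1 of 4 genes was called, as lower (9.56% over all genes tested). STARD4, a soluble carrier that moves sterol between membranes and is itself a target of SREBP-2 (chr5:110831731-110848288, minus strand, GRCh37), had 40.7 and 36.0 CPM with control shRNA and 27.2 and 23.3 CPM with USP47 shRNA. It fell, with a log2 fold change of -0.60 ± 0.14 (SE, adjusted p = 0.0191). Without control shRNA replicate 1 its log2 fold change was -0.51 (adjusted p = 0.271), and without replicate 2 it was -0.69 (adjusted p = 0.0681). SOAT1, which esterifies cholesterol for storage, had 47.7 and 47.8 against 40.8 and 37.8 CPM, without overlap (-0.28 ± 0.13 in log2, adjusted p = 0.155). The lysosomal export pair overlapped between groups: NPC1 had 57.1 and 59.3 against 56.2 and 65.1 CPM (0.06 ± 0.13), and NPC2 had 59.3 and 54.7 against 56.5 and 81.3 CPM (0.27 ± 0.17).

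Among the LXR genes 2 of 5 rose and 1 fell, beside 6.52% and 9.56% over all genes tested. NR1H3, which encodes LXRα (chr11:47269851-47290584, plus strand, GRCh37), had 16.8 and 17.4 CPM against 7.93 and 10.4 CPM and fell by 0.91 ± 0.17 (SE) on the log2 scale (adjusted p = 0.0071). NR1H2, which encodes LXRβ, had 25.9 and 29.3 against 28.9 and 38.3 CPM, which overlap, with a log2 fold change of 0.28 ± 0.16 (adjusted p = 0.257). The receptor gene that fell was thus the less abundant of the pair, 5.39 TPM against 10.0 TPM for NR1H2 in the control mean. NR1H2 shares 22.1% of its exon bases with NAPSA on the opposite strand.

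The targets that rose were ABCA1 and MYLIP. ABCA1, the pump that hands cholesterol to apolipoprotein A-I (chr9:107543287-107690436, minus strand, GRCh37), had 429 and 417 CPM with control shRNA and 555 and 653 CPM with USP47 shRNA. Its log2 fold change was 0.51 ± 0.15 (SE, adjusted p = 0.0377). MYLIP, a ubiquitin ligase that LXR induces and that limits lipoprotein uptake (chr6:16129317-16148479, plus strand, GRCh37), had 53.8 and 58.1 CPM against 80.8 and 93.3 CPM. Its log2 fold change was 0.64 ± 0.13 (adjusted p = 0.0116), the largest rise in the list. ABCG1, the second pump, had 107 and 117 against 114 and 161 CPM, with overlap (0.29 ± 0.17, adjusted p = 0.260). Neither call of a rise held with 1 control library, although the fold changes moved little. Without control replicate 1 and without replicate 2, ABCA1 had a log2 fold change of 0.53 (adjusted p = 0.411) and 0.49 (adjusted p = 0.363), and MYLIP one of 0.58 (adjusted p = 0.223) and 0.69 (adjusted p = 0.0850).

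GRAMD1A, FDPS and NR1H3 had an adjusted p under 0.05 in each of the 10 alternatives run, which leaves out in turn each of the 4 libraries. With 1 library left in a group, that library is assumed to vary like the other group. Each called gene stayed called when either USP47 library was left out, but more genes were called over the whole table in those fits. The spread there came from the control libraries alone, so this adds no support.

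The 2 USP47 libraries differed from each other across the list, and this touches each group above. On the scale log2(CPM + 0.5), replicate 2 lay above replicate 1 in 29 of the 33 genes (87.9%), with a median difference of 0.35, against 53.1% and a median of 0.03 over all genes tested. Between the control libraries the same median was 0.06 for the 33 genes. There replicate 2 lay above replicate 1 in 23 of the 33 (69.7%), against 49.8% of all genes tested. Set against the control mean, the median of the 33 genes was -0.13 in USP47 replicate 1 and 0.14 in replicate 2. On this scale the list as a whole thus leaned down in one library and up in the other. The 18 enzymes of synthesis moved in the same way, with 16 of 18 higher in replicate 2, a median of -0.17 in replicate 1 and 0.11 in replicate 2. The 4 of the 33 genes that were lower in replicate 2 were IDI1, SC5D, STARD4 and SOAT1. Replicate 2 was also the library with less USP47 left. The 34 genes other than GRAMD1B summed to 4294 and 4434 CPM with control shRNA and 3982 and 5038 CPM with USP47 shRNA. In the deposited TPM they summed to 1238 and 1132 against 1121 and 1064, so there USP47 replicate 2 was not the higher. The lean of replicate 2 thus depended on the scale used.

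**Figure D3:**
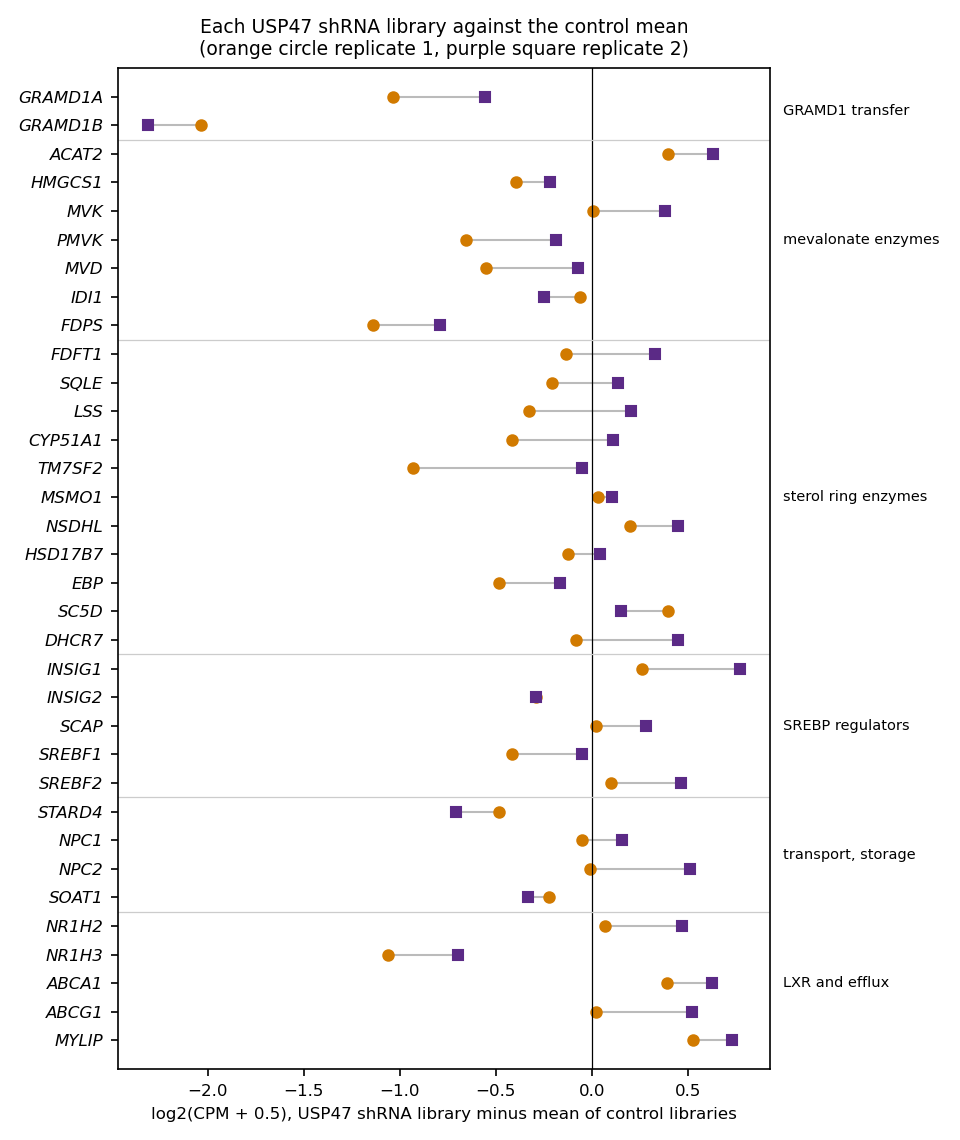
Difference of each USP47 shRNA library from the mean of the control libraries (x axis, log2(CPM + 0.5)) for the 34 tested genes, orange circles for replicate 1 and purple squares for replicate 2, joined per gene. Most squares lie to the right of their circles, and for FDFT1, SQLE, LSS, CYP51A1, HSD17B7, DHCR7, NPC1 and NPC2 the 2 libraries fall on opposite sides of 0.

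The GC content of transcripts moved with the difference between the USP47 libraries. In 5 bins of nearly equal size by GC content of the canonical transcript, from low to high, the median of USP47 replicate 2 minus replicate 1 over the 20217 of 21932 tested genes with a GC value went from -0.21 through -0.08, 0.05 and 0.16 to 0.20. Of the 33 genes, 12 lay in the highest bin, and the median GC content was 49.1% for the 33 and 48.1% for the 20217. The lowest bin, up to 41.0%, held 7 of the 33. Among these were IDI1 (37.9%), SC5D (36.9%), STARD4 (34.4%) and SOAT1 (39.5%), which were lower in replicate 2. HMGCS1, MSMO1 and INSIG2, in the same bin, were higher in replicate 2. The median difference of the 33 genes between the USP47 libraries, 0.35, was above that of the highest bin, 0.20. Between the control libraries the medians of the 5 bins rose in the same order. They were -0.09, -0.05, -0.002, 0.06 and 0.09 for control replicate 2 minus replicate 1. The part of GC content in the result was not tested. The share of counts from mitochondrial genes was 5.62% and 5.68% with control shRNA and 4.81% and 4.86% with USP47 shRNA, lower in both USP47 libraries. That from 7SL RNA was 7.11% and 8.74% with control shRNA and 7.54% and 9.72% with USP47 shRNA, higher in replicate 2 of each group. Their part in the results was not tested.

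**Figure D4:**
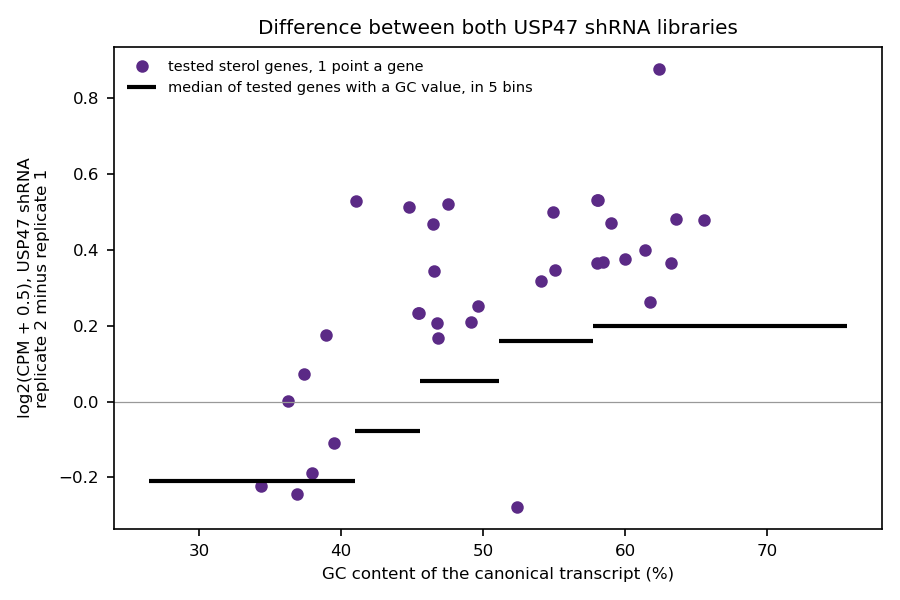
Difference between both USP47 shRNA libraries (y axis, log2(CPM + 0.5), replicate 2 minus replicate 1) against transcript GC content in percent (x axis), points for the 34 tested sterol genes and black bars for the median of the 20217 tested genes with a GC value in each of 5 bins. The bars climb from -0.21 to 0.20, and 29 of the 33 genes other than GRAMD1B lie above 0.

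Other genes of lipid metabolism, in 4 further lists of 52 genes of which 49 were tested, give the setting of these values. They share the libraries and the contrast and are no independent evidence. In fatty acid synthesis, the branch that SREBP-1 governs, 0 of 11 tested genes rose. SCD, FADS2, ELOVL6 and ME1 fell, and the list's median was -0.16 in log2. Called higher among all genes tested were 6.52%, and lower 9.56%. The lowest log2 fold change, -2.28, was that of ELOVL5, a fatty acid elongase with few reads (22 and 30 counts, 1.30 and 1.53 CPM, against 4 and 6 counts, 0.192 and 0.418 CPM). ELOVL5 passed the filter through its control libraries alone, so its value is a description with no test. It is left out of the falls named above. The list's median and the 15 genes called in the further lists include it. SCD, the desaturase that makes oleate and a gene named here after its values were seen, was abundant, with 1676 and 1723 CPM against 435 and 695 CPM. Its log2 fold change was -1.59 ± 0.21 (adjusted p = 0.00164). The log2 fold change of FADS2, a fatty acid desaturase, was -1.06, and the difference between this list and the sterol genes was not tested.

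Of 12 genes for SREBP processing and sterol-regulated degradation 3 rose and 1 fell, beside 6.52% higher and 9.56% lower over all genes tested. SPRING1, needed for the protease that cuts SREBP, had 9.85 and 11.9 against 15.7 and 19.7 CPM (0.69 ± 0.17 in log2, adjusted p = 0.0233). ERLIN1, a lipid raft protein of the endoplasmic reticulum that takes part in degradation there, had 69.5 and 76.4 against 33.7 and 29.6 CPM (-1.20 ± 0.13, adjusted p = 0.000735). Of 17 tested sterol carriers and relatives 4 rose and 1 fell, beside the same shares over all genes tested. These were led by OSBPL10, an oxysterol-binding protein relative, with 4.42 and 3.87 against 7.50 and 7.39 CPM (0.85 ± 0.18, adjusted p = 0.0132), and by OSBPL1A, of the same family, with 116 and 102 against 72.7 and 64.7 CPM (-0.66 ± 0.13, adjusted p = 0.00997).

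In the isoprenoid branches that leave the pathway after FDPS, 1 of 9 genes was called, as lower (9.56% over all genes tested). COQ2, which builds coenzyme Q, had 18.7 and 18.2 against 12.5 and 13.7 CPM (-0.50 ± 0.14 in log2, adjusted p = 0.0418).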

How the data were processed

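Libraries of polyadenylated RNA from HGC-27 cells were sequenced on an Illumina instrument. Per the labels and methods, the authors mapped reads to hg19 with STAR 2.7.5c and used SAMtools 1.9 to drop duplicate and low-quality reads; the processing notes also name featureCounts. The counts, TPM and FPKM of each library were deposited by the authors, and counts are whole reads per gene with no normalisation. FPKM was not used. The annotation and the use of strand in counting are not given in the sources used here.

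Counts of the 4 libraries, with totals of 15649899 to 20140273, were tested with edgeR 4.0.16 in R 4.3.3 (filterByExpr, TMM, robust quasi-likelihood fit, group only, two-sided, Benjamini-Hochberg over 21932 genes); a gene was called at an adjusted p under 0.05. Positions and exon overlap came from GENCODE on GRCh37, and 55665 of 63568 identifiers matched a symbol. TPM, as deposited, compared levels between genes, and CPM was computed from the counts. The fit was tested on simulated data. There 81% of the genes changed by 1 in log2 were called, and 3.21% of the called genes were unchanged. Recovery of smaller changes, such as those of the called sterol genes other than GRAMD1B, is not given. SE was taken from the fold change and its F statistic. It covers the spread of 2 libraries per group only.

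The genes of the list and the further lists were chosen with earlier results of these data known. Named were all 35 genes, USP47, the called genes of each further list with the largest rise and fall, and GRAMD2A, GRAMD2B and GRAMD4. Outside this rule, the other called genes of the fatty acid list, SCD, FADS2, ELOVL6 and ME1, were also named. A further list, of partners and other targets of LXR, is not reported here. Alternatives were DESeq2 1.42.0, other scalings and filters, a block on the replicate number, a fold minimum, and leaving out each library.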

Additional observations from a re-analysis of the deposited data

How the results depend on the processing

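With 2 libraries per group, counts of called genes depend on single libraries. The number called over the whole table was 3527, and was 2293 with DESeq2, 7422 with the replicate block, 1216 with a log2 fold change of at least 1 in size, and 1230 to 7270 when 1 library was left out. Of the sterol genes other than GRAMD1B, 3 were higher and 4 lower. With the replicate block these were 9 and 10, with the fold minimum 0 and 0, and with 1 library left out 0 to 13 and 3 to 11. Genes called in the further lists, 15, became 4 with the fold minimum and 4 to 23 with 1 library left out. All 7 calls were kept under DESeq2, both other scalings, both other filters and the block. They also stayed called without either USP47 library, where the spread came from the control libraries alone. Without either control library GRAMD1A, FDPS and NR1H3 were kept. The replicate numbers are not tied to a shared batch by the labels, and with 2 pairs (correlation of replicate 1 deviations 0.274) they are taken as numbers only. With library size alone the log2 fold changes of MSMO1 (-0.0021) and NPC1 (-0.016) turned negative. Leaving out 1 library turned the sign of 8 genes, whose ranges were FDFT1 -0.13 to 0.34, SQLE -0.20 to 0.15, LSS -0.33 to 0.21, CYP51A1 -0.52 to 0.13, HSD17B7 -0.12 to 0.051, DHCR7 -0.083 to 0.46, NPC1 -0.046 to 0.17 and NPC2 -0.0065 to 0.52. The cause was not tested. Low counts limit GRAMD1B, GRAMD1C and CYP51A1.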
